A study of Mus musculus with 21 samples.

Results

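The genes described here are 10 transcripts, most of them used to recognise fibroadipogenic progenitors, the resident mesenchymal cells of skeletal muscle. Among the 10 is also the cytokine Il33, which these cells are known to make. Il33 and Cxcl12 are made by other cells too. The 10 are Pdgfra, Cd34, Ly6a, Dpp4, Pi16, Dpt, Il33, Cxcl12, Cxcl14 and Gsn, taken as a list of names. No measured value enters that rule, but the list was drawn up with earlier results of these data known. Of the 10, 9 had a probe set that carries their symbol alone among the 19752 genes of the table, and all 9 were among the 13278 genes bright enough to test; Ly6a was not analysed here. Values are log2 RMA intensities. To be tested, a gene had to exceed, on at least 2 arrays, the 40th percentile of all probe sets with 1 symbol, which was log2 6.62 to 6.84. Of the 9 members, 8 lay above that level on all 21 arrays and Il33 did so on 14.

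Male C57BL/6 mice aged 8 weeks carried the Foxp3-DTR allele (DTR+), in which Foxp3-expressing regulatory T cells carry the diphtheria toxin receptor, or lacked it (DTR-). By the series' description both genotypes received cardiotoxin, a venom peptide that destroys fibres and sets off regeneration, in the tibialis anterior at day 0, and diphtheria toxin every other day until the muscle was taken at day 4 or 8, so toxin exposure is shared by DTR+ and DTR- samples. Whole muscle was profiled on Affymetrix Mouse Gene 1.0 ST arrays in CTx-titled samples of DTR- mice at day 4 (n = 3) and day 8 (n = 3) and of DTR+ mice at day 4 (n = 2) and day 8 (n = 3), and in xINJ-titled samples of DTR- mice at day 4 (n = 3) and day 8 (n = 3) and of DTR+ mice at day 4 (n = 1) and day 8 (n = 2), with 1 DTR+ sample at day 0 labelled as a treatment control. The labels carry cardiotoxin in the description of both CTx and xINJ samples and do not say what xINJ stands for, so these names are used as titled. Whether replicates are different mice is not stated either; the p-values therefore cover sample-to-sample spread that could be technical. 1 sample stood apart: DTR- CTx day 4 replicate 1 had the lowest level of Ckm, the creatine kinase of muscle fibres, at 12.52 against 13.37 to 14.05 in the other samples. Replicate 1 of DTR- xINJ day 4 carries a time tag of day 8 while its title and preparation say day 4, and it was used at day 4. No sample was sorted for progenitors: in whole muscle, fewer cells of a type and less RNA per cell cannot be told apart.

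Fibroadipogenic progenitors lie between muscle fibres, are recognised by the PDGF receptor alpha on their surface, and expand transiently after injury, when they lay down matrix and send signals to muscle stem cells and leukocytes. IL-33 is an alarmin of the IL-1 family that sits in the nucleus of stromal cells and acts through the receptor ST2, encoded by Il1rl1, and muscle regulatory T cells are known to respond to it. CXCL12 and CXCL14 are chemokines of stromal cells, and DPP4 and PI16 mark a stem-like adventitial subset of fibroblasts.

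Promoter sequence is printed for the 4 genes on which most of the results turn, as the 250 bases before an annotated start (RefSeq, mouse build GRCm38.p6). Il33 has 2 annotated starts in the table, and both windows are shown since the probe set does not say which start was used. Gsn has 3 annotated starts, and its first window is printed for brevity, not because that start is known to be used. The second Il33 window and the Pdgfra window lie inside the annotated span of their gene. Capitals mark matches, on either strand, to 5 motifs that were searched: TATAAA, the AP-1 site TGANTCA, the E-box CAGCTG, the GC box GGGCGG and the TEAD motif GGAATG.
Il33, first start, chr19:29924863-29925112, + strand: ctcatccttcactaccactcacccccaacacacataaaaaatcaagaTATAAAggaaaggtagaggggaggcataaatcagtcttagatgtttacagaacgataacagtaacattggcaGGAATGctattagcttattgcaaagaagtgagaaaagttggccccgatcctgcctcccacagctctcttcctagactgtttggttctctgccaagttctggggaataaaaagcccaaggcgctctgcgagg
Il33, second start, chr19:29945540-29945789, + strand: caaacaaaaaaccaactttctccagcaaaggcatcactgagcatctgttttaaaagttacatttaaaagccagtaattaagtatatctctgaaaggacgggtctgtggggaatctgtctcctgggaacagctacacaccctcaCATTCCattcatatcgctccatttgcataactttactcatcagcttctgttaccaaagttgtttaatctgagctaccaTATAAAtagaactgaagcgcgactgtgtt
Pdgfra, chr5:75152001-75152250, + strand: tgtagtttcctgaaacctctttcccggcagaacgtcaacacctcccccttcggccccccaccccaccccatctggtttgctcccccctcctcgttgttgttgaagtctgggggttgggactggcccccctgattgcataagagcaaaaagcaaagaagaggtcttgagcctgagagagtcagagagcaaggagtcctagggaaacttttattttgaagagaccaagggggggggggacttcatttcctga
Dpt, chr1:164796413-164796662, + strand: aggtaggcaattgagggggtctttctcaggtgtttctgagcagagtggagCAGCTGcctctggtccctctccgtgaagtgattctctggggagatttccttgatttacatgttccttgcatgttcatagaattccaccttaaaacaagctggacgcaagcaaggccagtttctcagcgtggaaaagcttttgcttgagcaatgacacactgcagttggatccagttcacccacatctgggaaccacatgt
Gsn, first start, chr2:35256109-35256358, + strand: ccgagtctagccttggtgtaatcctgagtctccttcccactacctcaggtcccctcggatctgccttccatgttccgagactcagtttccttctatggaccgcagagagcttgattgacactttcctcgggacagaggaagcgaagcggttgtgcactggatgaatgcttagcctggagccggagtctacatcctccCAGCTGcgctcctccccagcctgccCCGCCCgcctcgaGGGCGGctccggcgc

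Each Il33 window held 1 TATAAA and 1 TEAD match, the Dpt window 1 E-box, the first Gsn window 1 E-box and 2 GC box matches, and the Pdgfra window none of the 5. Of the Gsn windows not printed, the second held 1 E-box and 1 GC box match and the third 1 GC box match. No 2 matches overlapped in these windows. Among 32851 promoter windows of the same length, TATAAA was found in 12.4%, TGANTCA in 6.75%, CAGCTG in 13.0%, GGGCGG in 32.7% and GGAATG in 12.6%. These are letters in a window and not measured binding sites.

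Il33, Pdgfra and Dpt were the members that stood higher in CTx than in xINJ muscle most often, and Gsn was the member that stood lower. In DTR- mice at day 4, 3 of the 9 members were higher in CTx muscle (Il33, Pdgfra and Dpt) and 1 was lower (Gsn), where 46.6% of all tested genes passed limma's test at an adjusted p under 0.05, 26.1% higher and 20.5% lower. In DTR- mice at day 8, 2 were higher (Dpt and Pdgfra) and 1 lower (Gsn), against 13.5% of all genes, 10.4% higher and 3.17% lower. In DTR+ mice at day 8, 5 were higher (Dpt, Pdgfra, Il33, Pi16 and Cd34) and 0 lower, against 25.3% of all genes, 16.7% higher and 8.51% lower. With centred arrays the share of higher genes among those called in the 3 comparisons was 44.3%, 62.7% and 46.1%, against 56.1%, 76.6% and 66.3% as first scaled, and with quantile normalization it was 45.3%, 60.7% and 52.9%. The medians of the 9 log2 differences were 0.27, 0.11 and 0.54, beside medians over all tested genes of -0.01, 0.03 and 0.05.

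**Figure D1:**
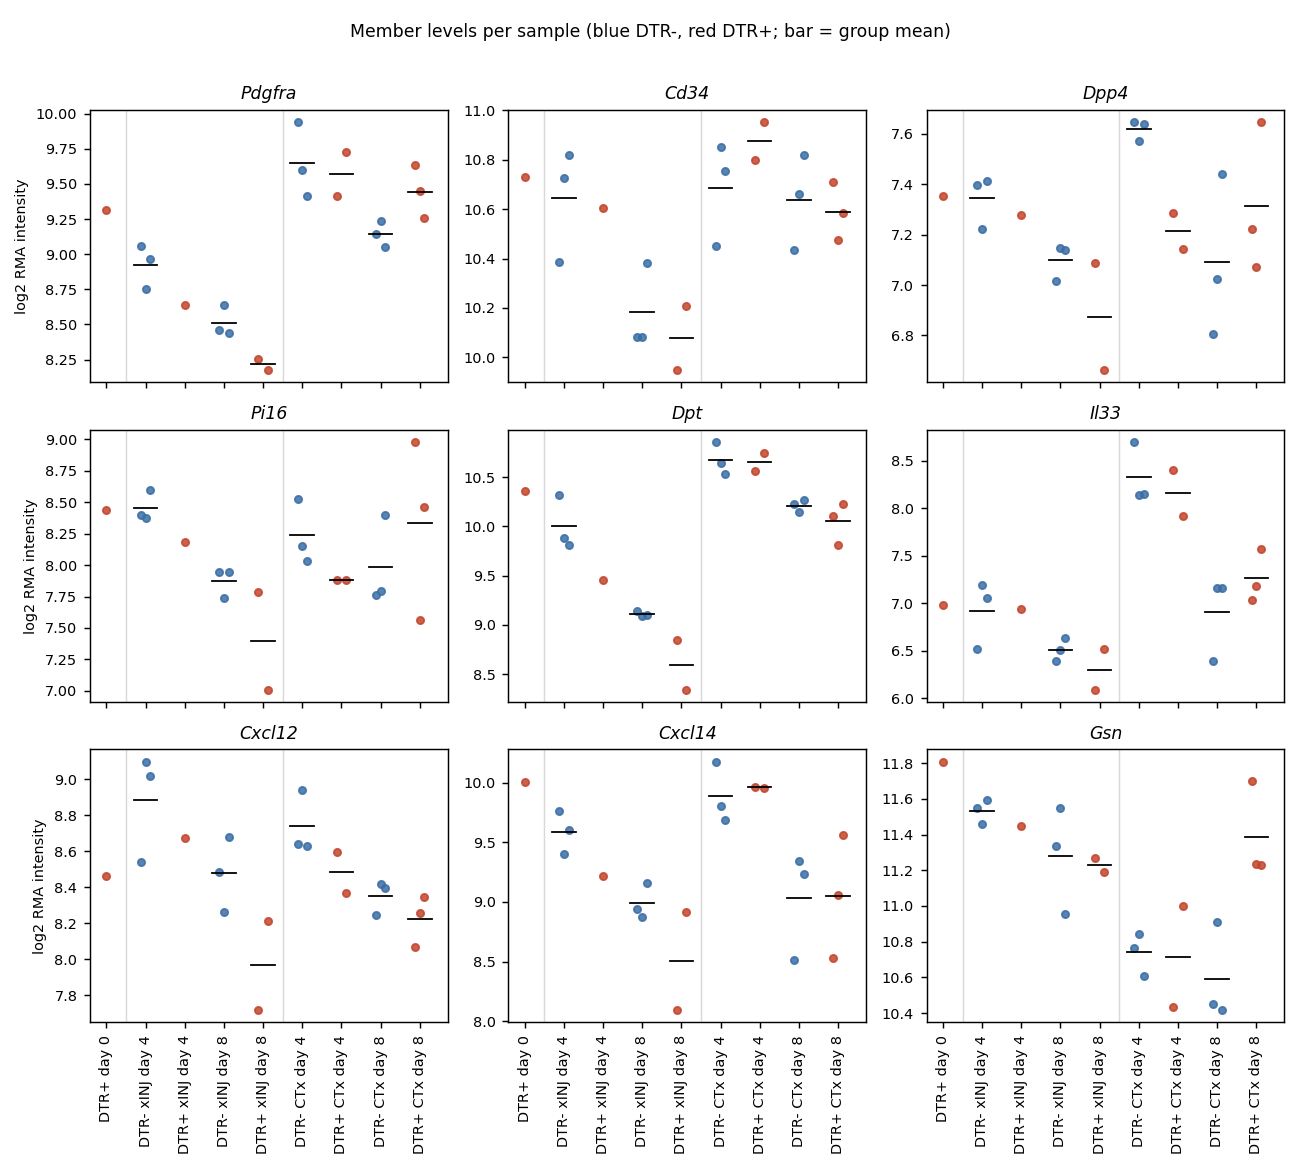
Log2 RMA intensity (y axis, its own range in each panel, not starting at 0) of the 9 members in each of the 21 samples, by group along the x axis; blue points are DTR- samples, red points DTR+ samples, and bars are group means where a group has more than 1 sample. Il33 sits between 7.92 and 8.70 in the 5 CTx samples of day 4, above its values in all other samples.

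**Figure D2:**
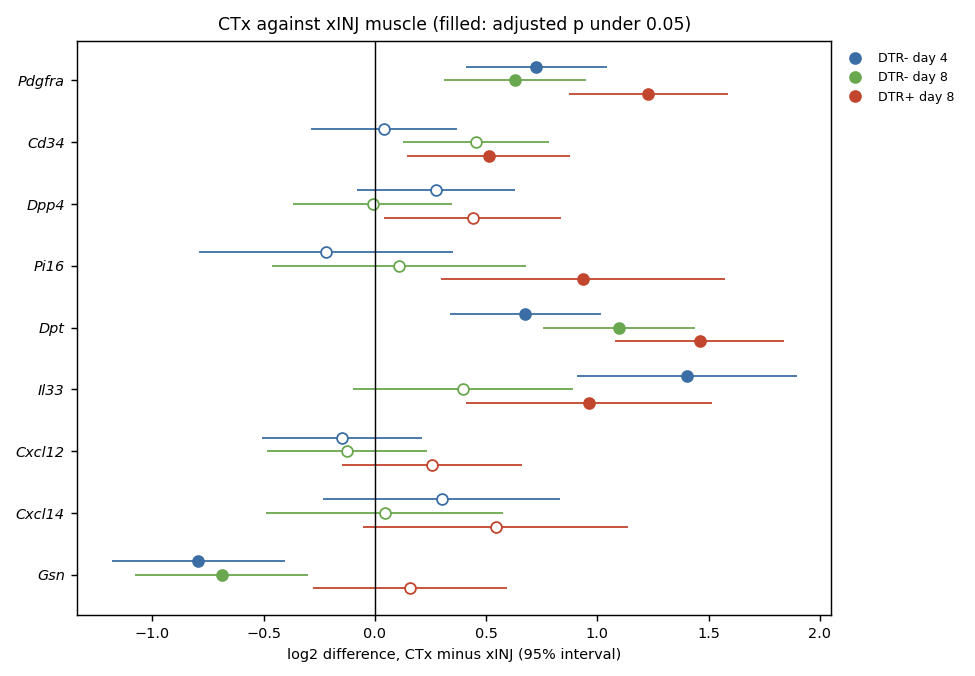
Log2 difference of CTx minus xINJ muscle (x axis) with its 95% interval for each member (y axis) in DTR- mice at day 4 and day 8 and in DTR+ mice at day 8; filled points passed limma's test at an adjusted p under 0.05. Il33 at day 4 has the largest difference of the DTR- comparisons, at 1.40, and Gsn lies below 0 in both of them.

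Il33 rose most of the members between xINJ and CTx muscle at day 4. At day 4 in DTR- mice the 3 CTx samples measured 8.70, 8.14 and 8.15 and the 3 xINJ samples 6.52, 7.20 and 7.06. The lowest CTx sample lay above the highest xINJ sample, so the groups did not overlap. The difference was 1.40 ± 0.24 on the log2 scale (SE, 3 against 3 samples), 2.65-fold, with an adjusted p of 7.3e-05 in limma. The call held without each of the 6 samples in turn, with differences of 1.20 to 1.54.

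By day 8 the Il33 difference in DTR- mice was smaller. CTx samples of day 8 measured 6.39, 7.16 and 7.16 and xINJ samples 6.39, 6.51 and 6.63. The groups overlapped at their low ends, and all 3 xINJ samples lay below the 40th percentile of their arrays, as did 1 of the 3 CTx samples. The fitted difference of 0.40 did not pass (adjusted p = 0.32), with a 95% interval of -0.10 to 0.89. The difference of the CTx effect between day 8 and day 4 was -1.01 ± 0.33 (SE), with an adjusted p of 0.054 in limma, just outside the threshold. It reached 0.049 without CTx day 8 replicate 3 and 0.047 without xINJ day 4 replicate 2. These are fits that moved it under the threshold. Without the sample of low Ckm level and the sample of doubtful day, the day 4 difference was smaller, as given below. Neither sample enters the day 8 groups, so the difference between the days shrank too.

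In DTR+ mice at day 8, Il33 measured 7.03, 7.18 and 7.57 in CTx muscle and 6.09 and 6.51 in xINJ muscle. The groups did not overlap, and both xINJ samples lay below the 40th percentile of their arrays, so CTx muscle was at least 1.51-fold higher, measured against the mean of that level on those arrays. The fitted log2 difference was 0.96 ± 0.26 (SE, 3 against 2 samples), adjusted p = 0.011. Without CTx replicate 3 it was 0.81 (adjusted p = 0.051) and without xINJ replicate 1 it was 0.75 (adjusted p = 0.15).

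Il33 fell between day 4 and day 8 in CTx muscle of both genotypes. In DTR- mice the fall was 1.42 on the log2 scale (SE 0.24, 2.68-fold, adjusted p = 0.00016), with no overlap between the days. It passed in all 6 fits that left out 1 sample of these groups. In DTR+ mice, whose 2 day 4 samples measured 8.41 and 7.92, it fell by 0.90 (SE 0.26, 1.86-fold, adjusted p = 0.033), again with no overlap. That DTR+ call was lost with quantile normalization (-0.84, adjusted p = 0.060). Without DTR+ CTx day 4 replicate 2 the DTR+ change was -0.65 (adjusted p = 0.28), without day 8 replicate 1 it was -0.78 (adjusted p = 0.12) and without day 8 replicate 2 it was -0.86 (adjusted p = 0.087).

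The order of Il33 group means ran from DTR- CTx day 4 (8.33) and DTR+ CTx day 4 (8.16) through DTR+ CTx day 8 (7.26), DTR+ day 0 (6.98), DTR+ xINJ day 4 (6.94), DTR- xINJ day 4 (6.92), DTR- CTx day 8 (6.90) and DTR- xINJ day 8 (6.51) to DTR+ xINJ day 8 (6.30). The first 2 overlapped in their samples. DTR+ CTx day 8 overlapped with DTR- xINJ day 4 and with DTR- CTx day 8. DTR- xINJ day 4 also overlapped with DTR- CTx day 8 and with DTR- xINJ day 8. DTR- CTx day 8 overlapped with each of the last 2, which overlapped with each other. The day 0 and DTR+ xINJ day 4 values are single samples. The genes most like Il33 by Pearson correlation of log2 intensity over the 21 samples were Vamp8 (r = 0.98), Pid1 (0.96), Epb41l2 (0.96), Ugdh (0.96) and Tram1 (0.95). These are descriptions over samples that share the group structure, and no p is attached.

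Cells of other types also make Il33, and markers of several changed in the same comparison. In DTR- CTx against xINJ muscle at day 4, 26.1% of all tested genes were higher and 20.5% lower. There 8 of 8 macrophage markers were higher (median log2 difference 3.63) and 8 of 13 endothelial markers lower (median -0.75). Of the mature fibre markers 7 of 9 were lower (median -0.82), and 12 of 13 activated fibroblast and matrix genes were higher (median 2.27). Among 7 muscle stem cell markers 4 were higher and 2 lower. Of 8 pericyte and smooth muscle markers 1 was higher and 4 lower, and 3 of 5 tendon markers were higher. Mean log2 levels of the 13 endothelial markers were 8.11 to 8.78 over the CTx samples and 8.83 to 9.50 over the xINJ samples, while those of the macrophage markers were 10.9 to 11.3 and 7.26 to 7.72. Their part in the Il33 result was not tested. The CTx sample with the lowest Ckm level also had the highest Il33 value. Without it and the sample of doubtful day the differences at day 4 all still passed, at 1.02 for Il33 (adjusted p = 0.0036), 0.65 for Pdgfra, 0.74 for Dpt and -0.80 for Gsn.

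Of 15 genes listed for the IL-33 pathway, 12 had a probe set of their own and 10 were tested; Il1rl1 and Areg were not analysed here. In CTx against xINJ muscle of DTR- mice 2 of the 10 were higher at day 4, where 26.1% of all genes were, and the same 2 at day 8, where 10.4% were: Il4ra, a subunit of the receptors for IL-4 and IL-13 (2.00 and 0.73), and Myd88, the adaptor of IL-1 family receptors (1.86 and 0.88). The day 8 call of Myd88 was lost without CTx replicate 2 (0.78), CTx replicate 3 (0.88) or xINJ replicate 1 (0.72), with adjusted p of 0.055 to 0.09. None of the 10 passed as lower at day 4, but Traf6, a signalling adaptor (-0.33), and Sigirr, a receptor that dampens IL-1 family signals (-0.27), did so with centred arrays (adjusted p of 0.012 and 0.015) and quantile normalization (0.0026 and 0.028). Il1rap, the co-receptor of ST2, differed by 0.06 and -0.09 and did not pass. In DTR+ mice at day 8, 3 of 10 were higher in CTx muscle, where 16.7% of all genes were: Ccl24, an eosinophil chemokine (at least 1.68-fold, both xINJ samples lying below the 40th percentile), Il4ra (0.83) and Gata3, a transcription factor of type 2 lymphocytes (0.96, groups overlapping). Ccl24 exceeded that percentile only in the 3 DTR+ CTx samples of day 8. It thus met the filter for testing through the group where it is high. The Gata3 call was lost without CTx replicate 2 (0.89) or CTx replicate 3 (0.60), and with centred arrays (0.81). It was also lost with only the compared groups in the fit (adjusted p = 0.11). Without xINJ replicate 1, which leaves 1 xINJ sample, the Gata3 difference was 0.66.

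With the DTR allele 3 of the 10 were higher in CTx muscle at day 8, where 3.03% of all genes were: Ccl24 (1.42 ± 0.13, SE, adjusted p = 4.3e-06), Gata3 (1.18 ± 0.29, adjusted p = 0.025) and Il4ra (0.67 ± 0.15, adjusted p = 0.016), with no overlap between the genotypes. All 3 DTR- samples of that comparison lay below the 40th percentile of their arrays for Ccl24 and Gata3, so the folds were at least 1.62 and at least 1.51. Ccl24 exceeded that level only in the 3 DTR+ CTx samples of day 8. It was therefore tested only because of the group where it is high, and its p describes a gene kept through that group. The Ccl24 call held without each of the 6 samples. That of Gata3 was lost without DTR+ replicate 2 (1.10) or 3 (0.82) or DTR- replicate 1 (1.10) or 2 (1.16), at adjusted p of 0.092 to 0.18. The Gata3 call was also lost with only the compared groups in the fit (adjusted p = 0.088). That of Il4ra was lost without DTR+ replicate 2 (0.68) or 3 (0.56) or DTR- replicate 1 (0.58) or 3 (0.68), at adjusted p of 0.05 to 0.11. In xINJ muscle at day 8, 0 of the 10 passed limma's test and 3 had an unadjusted p under 0.05, among them Il4ra (0.57, adjusted p = 0.10) and Myd88 (0.74, adjusted p = 0.18). Both passed with the sample of doubtful day moved to day 8 (adjusted p of 0.034 and 0.031) and with the replicate block (0.039 and 0.020).

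Pdgfra, the receptor that defines these cells, stood higher in CTx muscle in all 3 comparisons. At day 4 it measured, in DTR- mice, 9.94, 9.60 and 9.41 in CTx and 9.06, 8.75 and 8.96 in xINJ muscle. The lowest CTx sample was above the highest xINJ sample. The log2 difference was 0.73 ± 0.15 (SE), 1.65-fold, with an adjusted p of 0.00063.

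At day 8 Pdgfra measured 9.15, 9.24 and 9.05 in CTx and 8.46, 8.64 and 8.44 in xINJ muscle of DTR- mice, and 9.64, 9.45 and 9.25 against 8.26 and 8.18 in DTR+ mice. Neither pair of groups overlapped. The differences were 0.63 ± 0.15 (SE, 1.55-fold, adjusted p = 0.0080) and 1.23 ± 0.17 (SE, 2.35-fold, adjusted p = 3e-05). The DTR- call was lost with quantile normalization (0.53, adjusted p = 0.07). The difference between these 2 effects was 0.60 ± 0.23 (SE) with an adjusted p of 0.53, so it did not pass.

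Over time Pdgfra fell by 0.51 (SE 0.15, adjusted p = 0.016) in CTx muscle of DTR- mice, with no overlap between day 4 and day 8. That call rested on the sample with the low Ckm level: without it the change was -0.36 (adjusted p = 0.11), and without CTx day 8 replicate 3 it was -0.46 (adjusted p = 0.065). With quantile normalization it was -0.46 (adjusted p = 0.076). In DTR+ CTx muscle the change was -0.13 with a 95% interval of -0.48 to 0.23. In DTR- xINJ muscle it was -0.41, without overlap, and did not pass (adjusted p = 0.77). The CTx effect of Pdgfra in DTR- mice differed between the days by -0.10 (adjusted p = 0.84), so the fall was not shown to be particular to CTx muscle. The genes most like Pdgfra over the 21 samples were Mfap5 (r = 0.95), Col6a2 (0.93), Mmp23 (0.93), Fstl1 (0.92) and Col3a1 (0.92).

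Among the other 6 genes of the PDGF pathway, 2, 2 and 3 were higher in CTx muscle in the 3 comparisons, where 26.1%, 10.4% and 16.7% of all genes were, and 0 lower. Pdgfc, which encodes a ligand of the PDGF receptor alpha, was among them each time. It was higher in CTx muscle by 1.26 ± 0.14 (SE, adjusted p = 4.5e-07) in DTR- mice at day 4, by 0.70 ± 0.14 (adjusted p = 0.0014) at day 8, and by 1.38 ± 0.15 (adjusted p = 2.9e-06) in DTR+ mice at day 8. Pdgfrl, a receptor-like gene of the family, was higher by 1.04, 0.81 and 1.21, the last at least 2.18-fold since both DTR+ xINJ samples of day 8 lay below the 40th percentile. The ligand genes Pdgfa (-0.32, -0.14 and -0.42) and Pdgfd (-0.36, -0.02 and -0.09) did not pass. At day 4 both passed as lower with centred arrays (Pdgfa -0.43, Pdgfd -0.46) and quantile normalization (-0.40 and -0.41), and Pdgfa also without CTx replicate 2 (-0.49). In DTR+ mice Pdgfa passed as lower with centred arrays (-0.57), quantile normalization (-0.47) and the replicate block (-0.47, adjusted p = 0.031). Pdgfb differed by -0.12, 0.31 and 0.81, of which the last passed (adjusted p = 0.035) and was lost without CTx replicate 3 (0.62) or xINJ replicate 1 (0.69) or 2 (0.93), at adjusted p of 0.08 to 0.22, and with centred arrays (0.66, adjusted p = 0.069).

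Pdgfc also differed with the DTR allele in CTx muscle at day 8, at 8.63 ± 0.13 (SD, n = 3) in DTR+ and 7.73 ± 0.12 (SD, n = 3) in DTR- samples, with no overlap. The difference was 0.90 ± 0.14 (SE, adjusted p = 0.00044), and the adjusted p was 0.00039 to 0.0056 over all alternatives. It was the only 1 of the 6 PDGF pathway genes to pass there. Over the days Pdgfc fell by 0.93 in DTR- CTx muscle (adjusted p = 4.9e-05). In DTR+ CTx muscle Pdgfrb, the receptor beta gene of pericytes, fell by 1.10 (adjusted p = 0.0071), which was -0.80 (adjusted p = 0.11) without day 4 replicate 3.

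Cd34, a sialomucin carried by progenitors and also by endothelial cells, varied little: its 21 values ran from 9.95 to 10.95. In DTR+ mice at day 8 it measured 10.71, 10.47 and 10.58 in CTx and 9.95 and 10.21 in xINJ muscle, without overlap. The difference of 0.51 ± 0.18 (SE) passed at an adjusted p of 0.038, but not with centred arrays (0.36, adjusted p = 0.13), not with only the compared groups in the fit (adjusted p = 0.067) and not without CTx replicate 1 (0.45) or 3 (0.51) or xINJ replicate 1 (0.38) or 2 (0.64), at adjusted p of 0.057 to 0.30. In DTR- mice at day 8 the difference was 0.46 (adjusted p = 0.062), which passed with quantile normalization (adjusted p = 0.029), with only the compared groups in the fit (0.045), and without CTx replicate 1 (0.56, adjusted p = 0.049) or xINJ replicate 3 (0.56, adjusted p = 0.0498), and at day 4 it was 0.04 (adjusted p = 0.84). The genes most like Cd34 were Nid1 (r = 0.89), Gprc5c (0.89), Igfbp7 (0.88), Dnm1 (0.87) and Hspg2 (0.85).

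Dpp4, a cell surface peptidase, ran from 6.66 to 7.65. Its only call was in DTR- CTx muscle, where the samples measured 7.64, 7.57 and 7.64 at day 4 and 6.81, 7.03 and 7.44 at day 8. The days did not overlap, and Dpp4 fell by 0.53 (SE 0.17, adjusted p = 0.024). The call was lost without day 4 replicate 1 (-0.52) or 3 (-0.52) or day 8 replicate 1 (-0.39) or 2 (-0.50), at adjusted p of 0.057 to 0.14. In DTR+ CTx muscle the change over the days was 0.10 with a 95% interval of -0.30 to 0.50. In DTR- xINJ muscle it was -0.24, without overlap, and did not pass.

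Dpt, which encodes dermatopontin, a small matrix protein, was higher in CTx muscle in every comparison, with no overlap in any. Among DTR- mice at day 4 the CTx samples measured 10.86, 10.64 and 10.53 and the xINJ samples 10.32, 9.88 and 9.81. At day 8 they measured 10.22, 10.14 and 10.27 against 9.15, 9.09 and 9.10, and in DTR+ mice 10.11, 9.81 and 10.23 against 8.84 and 8.34. The lowest CTx sample of each comparison exceeded the highest xINJ sample. The differences were 0.68 ± 0.16 (SE, adjusted p = 0.0021), 1.10 ± 0.16 (adjusted p = 0.00010) and 1.46 ± 0.18 (adjusted p = 1e-05).

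Dpt also fell from day 4 to day 8 in all 3 settings tested. In xINJ muscle of DTR- mice it fell by 0.89 (SE 0.16, adjusted p = 0.047), in CTx muscle of DTR- mice by 0.47 (SE 0.16, adjusted p = 0.037) and in CTx muscle of DTR+ mice by 0.61 (SE 0.18, adjusted p = 0.037). In xINJ muscle 0.0678% of all tested genes passed, 0.0603% lower, which is 9 genes of which 8 lower, and Dpt was the 1 member among them. The xINJ day 4 sample with the highest Dpt value (10.32) is replicate 1, whose time tag reads day 8 while its title and preparation say day 4. With that sample moved to day 8 the xINJ change was -0.43 (adjusted p = 0.48), and the call was also lost without any of the 6 samples of the 2 groups (changes of -0.98 to -0.73). The call in DTR- CTx muscle was lost without day 4 replicate 1 (-0.38) or 2 (-0.48) or any of the 3 day 8 samples (-0.49 to -0.43), at adjusted p of 0.065 to 0.15. That in DTR+ CTx muscle was lost without day 8 replicate 1 (-0.64) or 2 (-0.49), at adjusted p of 0.067 and 0.14. It was also lost with quantile normalization (-0.51, adjusted p = 0.11) and with only the compared groups in the fit (adjusted p = 0.12). Without day 4 replicate 2 or 3, which leaves 1 sample of that day, the change was -0.70 or -0.51.

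Pi16, which encodes a secreted peptidase inhibitor, ran from 7.01 to 8.98 and had the largest SD of the members in DTR+ CTx muscle at day 8 (0.72). Its DTR+ samples of that day measured 8.98, 7.57 and 8.46 in CTx and 7.79 and 7.01 in xINJ samples. The groups overlapped, since the second CTx sample lay below the first xINJ sample. The difference of 0.94 ± 0.30 (SE) passed at an adjusted p of 0.029 but not with centred arrays (0.79, adjusted p = 0.067), quantile normalization (0.80, adjusted p = 0.085) or only the compared groups (adjusted p = 0.10). It was also lost without CTx replicate 1 (0.62) or 3 (0.87) or xINJ replicate 2 (0.55), at adjusted p of 0.082 to 0.35.

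Gsn encodes gelsolin, a protein that cuts and caps actin filaments and that muscle fibres make too. In DTR- mice its 3 CTx samples of day 4 measured 10.77, 10.84 and 10.61 and its xINJ samples 11.55, 11.46 and 11.59. All CTx samples were lower, with no overlap, and the difference was -0.79 ± 0.19 (SE, adjusted p = 0.0016). At day 8 CTx samples measured 10.45, 10.91 and 10.42 and xINJ samples 11.34, 11.55 and 10.96, again without overlap, and the difference was -0.69 ± 0.19 (SE, adjusted p = 0.017). The day 8 call was lost without CTx replicate 1 (-0.62) or 3 (-0.60) or xINJ replicate 1 (-0.66) or 2 (-0.56), at adjusted p of 0.062 to 0.095.

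In DTR+ mice at day 8 Gsn measured 11.70, 11.23 and 11.23 in CTx and 11.27 and 11.19 in xINJ muscle. The groups overlapped, and the difference of 0.16 did not pass (adjusted p = 0.64, 95% interval -0.28 to 0.59). Set against DTR- CTx muscle at day 8, all 3 DTR+ samples were higher without overlap: 11.39 ± 0.27 (SD, n = 3) against 10.59 ± 0.27 (SD, n = 3). That difference was 0.80 ± 0.19 (SE), 1.74-fold, with an adjusted p of 0.018. It was 0.64 (adjusted p = 0.088) without DTR+ CTx day 8 replicate 1, 0.72 (0.11) without DTR- CTx day 8 replicate 1 and 0.71 (0.097) without DTR- CTx day 8 replicate 3. Gsn also rose from day 4 to day 8 in DTR+ CTx muscle by 0.67 (SE 0.21, adjusted p = 0.043), which was 0.39 (adjusted p = 0.40) without day 4 replicate 2, 0.52 (0.17) without day 8 replicate 1 and 0.75 (0.053) without day 8 replicate 2. With centred arrays it was 0.65 (adjusted p = 0.061). The call was also lost with no filter (adjusted p = 0.052), with only the compared groups (adjusted p = 0.13) and with the replicate block (0.64, adjusted p = 0.055).

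Cxcl12 encodes the ligand of the chemokine receptor CXCR4, and its 21 values ran from 7.72 to 9.10. It passed in none of the 12 contrasts. Its largest shift was in xINJ muscle at day 8, where DTR+ samples measured 7.72 and 8.21 and DTR- samples 8.49, 8.27 and 8.68. The groups did not overlap, and the difference of -0.51 ± 0.19 (SE) had an adjusted p of 0.22. In DTR- CTx muscle it changed by -0.39 from day 4 to day 8 (adjusted p = 0.10), and with the replicate number as a block in the fit the adjusted p was 0.049. In DTR- xINJ muscle the change over the days was -0.41 (adjusted p = 0.90).

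Of 7 further genes listed for the CXCL12 pathway 6 were tested, and 3 were higher in CTx muscle in each of the 3 comparisons, where 26.1%, 10.4% and 16.7% of all genes were. Cxcr4 was higher in CTx muscle by 2.14 ± 0.19 (SE, adjusted p = 3.5e-08) in DTR- mice at day 4, by 0.95 ± 0.19 (adjusted p = 0.0018) at day 8 and by 1.11 ± 0.21 (adjusted p = 0.00065) in DTR+ mice at day 8. Cd74, the MHC class II invariant chain and a receptor of a CXCR4-binding cytokine, was higher by 2.77, 2.52 and 2.29, and Gnai2, a G protein subunit, by 1.20, 0.68 and 0.80, all passing. Without DTR+ xINJ day 8 replicate 1 the last of these, for Gnai2, was 0.54 (adjusted p = 0.053). Ackr3, the scavenging receptor of CXCL12, differed by -0.24, -0.01 and 0.07 and did not pass. Jak2, a cytokine receptor kinase, differed by -0.81 in DTR- mice at day 4 (adjusted p = 0.012), which was -0.66 (adjusted p = 0.056) without xINJ replicate 1 and -0.68 (adjusted p = 0.058) without xINJ replicate 2.

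Cxcl14 fell over time in CTx muscle of both genotypes. In DTR- mice it measured 10.17, 9.81 and 9.69 at day 4 and 8.52, 9.35 and 9.24 at day 8. In DTR+ mice it measured 9.97 and 9.96 at day 4 and 8.53, 9.06 and 9.56 at day 8. The days did not overlap in either genotype. The changes were -0.86 ± 0.25 (SE, adjusted p = 0.015) and -0.91 ± 0.28 (SE, adjusted p = 0.045). The first was lost without DTR- CTx day 4 replicate 1 (-0.71, adjusted p = 0.072) or day 8 replicate 1 (-0.60, adjusted p = 0.11), and the second without day 4 replicate 2 (-0.91) or 3 (-0.92) or day 8 replicate 1 (-0.65) or 2 (-0.92), at adjusted p of 0.09 to 0.19. The DTR- call was also lost with both doubtful samples left out (-0.71, limma adjusted p = 0.069). The DTR+ call was also lost with no filter (adjusted p = 0.056) and with quantile normalization (-0.83, adjusted p = 0.052). So it was with only the compared groups in the fit (adjusted p = 0.061) and with the replicate block (-0.82, adjusted p = 0.060). In CTx against xINJ muscle Cxcl14 passed in no comparison, though without DTR+ CTx day 8 replicate 1 the DTR+ difference of 0.54 was 0.80 (adjusted p = 0.046). Cxcl14 was also lower at day 8 in DTR- xINJ muscle, by 0.60 without overlap, which did not pass (adjusted p = 0.91). The CTx effect in DTR- mice differed between the days by -0.26 (adjusted p = 0.73), so the fall was not shown to be particular to CTx muscle.

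Over all members, the days in CTx muscle gave 5 falls and 0 rises of 9 in DTR- mice (Il33, Cxcl14, Dpp4, Pdgfra and Dpt), where 29.7% of all genes passed, 11.6% higher and 18.0% lower. In DTR+ mice there were 3 falls (Cxcl14, Il33 and Dpt) and 1 rise (Gsn), where 11.1% passed, 2.84% higher and 8.24% lower. All 9 fitted differences were below 0 in DTR- CTx muscle and in DTR- xINJ muscle, with medians of -0.47 and -0.41 beside 0.02 and -0.03 over all genes. Markers of other cells moved between the same days. In DTR- CTx muscle 8 of 8 macrophage markers were lower at day 8 (median -1.95), 10 of 13 activated fibroblast and matrix genes were lower (median -1.12) and 7 of 9 mature fibre markers were higher (median 0.71). Mean log2 levels of the macrophage markers were 10.9 to 11.3 at day 4 and 9.12 to 9.24 at day 8, and those of the fibre markers 12.4 to 13.0 and 13.5 to 13.6. In DTR+ CTx muscle 6 of 8 macrophage markers (median -0.92) and 8 of 13 activated fibroblast and matrix genes (median -0.87) were lower, and 2 of 9 fibre markers were higher (median 0.21). The part of these cells in the members' falls was not tested. Without the sample of low Ckm level and the sample of doubtful day, 1 of the 5 falls in DTR- CTx muscle (Il33) passed.

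**Figure D3:**
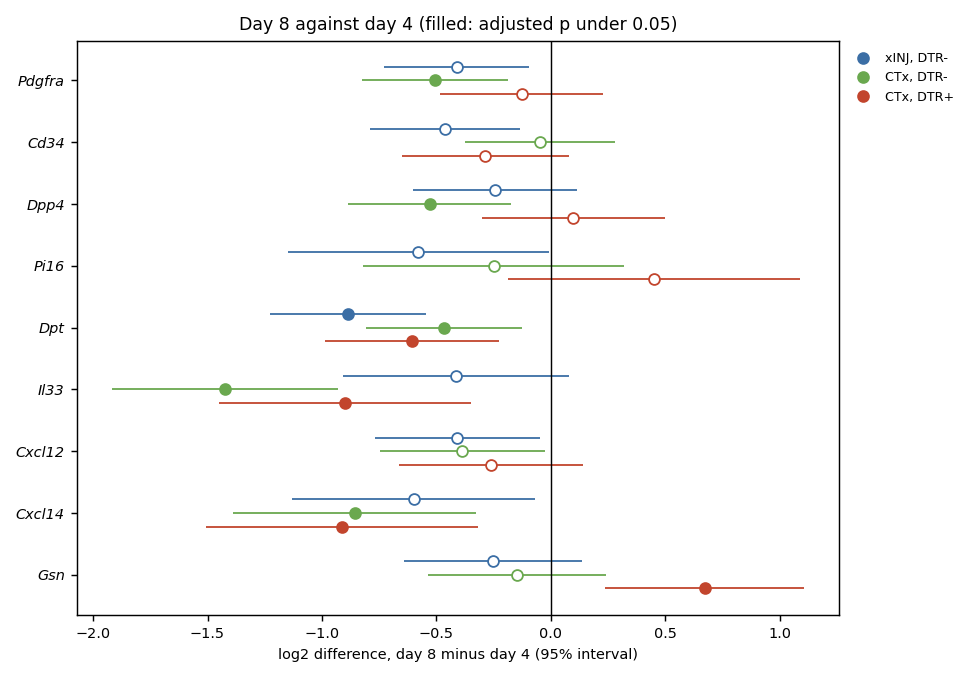
Log2 difference of day 8 minus day 4 (x axis) with its 95% interval for each member (y axis) in xINJ muscle of DTR- mice and in CTx muscle of DTR- and DTR+ mice; filled points passed limma's test at an adjusted p under 0.05. All 9 points lie below 0 in DTR- muscle, and Gsn in DTR+ CTx muscle lies at 0.67.

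Between the genotypes 1 member passed in 1 of the 3 comparisons. In CTx muscle at day 4, 0 of 9 passed limma's test, where 0.00753% of all tested genes did, which is 1 gene, and 274 genes had an unadjusted p under 0.05. Dpp4 (-0.41, adjusted p = 0.9999) was the 1 member among these. In CTx muscle at day 8, 1 of 9 passed (Gsn, higher), where 3.68% of all genes did, 3.03% higher. In xINJ muscle at day 8, 0 of 9 passed limma's test, where 2.61% of all genes did, 1.81% higher and 0.806% lower. Dpt (-0.52, adjusted p = 0.17) and Cxcl12 had an unadjusted p under 0.05 there. All 9 xINJ differences were below 0, with a median of -0.30 beside -0.01 over all genes. Members vary together, so these 9 are not separate results.

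**Figure D4:**
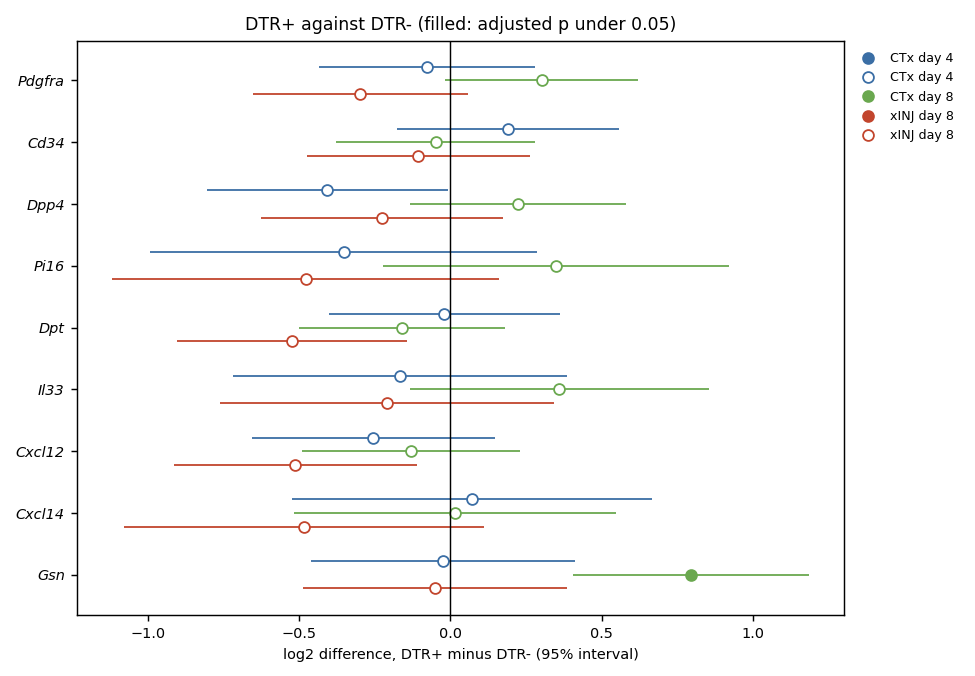
Log2 difference of DTR+ minus DTR- (x axis) with its 95% interval for each member (y axis), for the CTx samples of day 4, the CTx samples of day 8 and the xINJ samples of day 8; filled points passed limma's test at an adjusted p under 0.05. Gsn in CTx muscle at day 8, at 0.80, is the only filled point.

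Limma's tests of whether the genotype effect differed between day 8 and day 4 in CTx muscle, or between CTx and xINJ muscle at day 8, called 0 members, where 0.587% (0.557% higher, 0.0301% lower) and 0.233% (0.105% higher, 0.128% lower) of all genes passed. In the first, Gsn (0.82 ± 0.28, SE, adjusted p = 0.22) and Dpp4 (0.63 ± 0.26, adjusted p = 0.35) were under 0.05 unadjusted. In the second, Gsn (0.85 ± 0.28, adjusted p = 0.37) and Pdgfra were. For the difference of the CTx effect between the days in DTR- mice 0 members passed, where 12.5% of all genes did (5.13% higher and 7.34% lower), and Il33 was the 1 member under 0.05 unadjusted.

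At day 8, macrophage and T cell markers moved with the genotype beside the Gsn difference. In DTR+ against DTR- CTx muscle 4 of 8 macrophage markers (median 0.82) and 4 of 5 tested T cell markers (median 1.46) were higher, and 2 of 13 endothelial markers were lower (median -0.39). Of all tested genes 3.03% were higher and 0.655% lower. Mean levels of the macrophage markers were 9.88 to 10.02 in DTR+ and 9.12 to 9.24 in DTR- samples, and of the T cell markers 7.38 to 8.01 and 6.54 to 6.77. Their part in the Gsn and Pdgfc results was not tested. In xINJ muscle at day 8, 3 of 8 macrophage markers were also higher in DTR+ samples (median 0.65), where 1.81% of all genes were. There 0 of the 5 T cell markers passed (median 0.39), and Gsn differed by -0.05 and did not pass. Foxp3 itself lay below the 40th percentile on all DTR+ CTx arrays and on 4 of 6 DTR- CTx arrays, and its genotype differences did not pass, so the array gives no check of depletion in this tissue.

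Other progenitor and fibroblast genes, 23 of 24 of which were tested, were mixed in direction. In DTR- mice at day 4, 7 of the 23 were higher in CTx muscle and 4 lower (median -0.03), where 26.1% of all tested genes were higher and 20.5% lower; the 4 of smallest p were Adam12, a metalloprotease of activated progenitors (at least 3.46-fold, since all 3 xINJ samples lay below the 40th percentile), Mfap5, a microfibril protein (1.31), Thy1, a surface glycoprotein (1.15), and Lum, the proteoglycan lumican (1.05). The 4 lower genes, named after their values were seen because they are few, were Sema3c (-0.96), Smoc2 (-0.67), Clec3b (-0.50) and Vit. Vit lay below the 40th percentile on all 3 CTx and 2 of 3 xINJ arrays, so no fold is given for it. The call of Clec3b was lost without CTx replicate 3 (-0.46) or xINJ replicate 1 (-0.46) or 3 (-0.43), at adjusted p of 0.073 to 0.092. It was also lost with the sample of doubtful day moved (adjusted p = 0.085). That of Smoc2 was lost with both doubtful samples left out (-0.58, adjusted p = 0.063). Igfbp6 and Procr passed as lower with centred arrays (adjusted p of 0.042 and 0.026) and quantile normalization (0.049 and 0.018). Cd248, among the 7 higher, did not pass with quantile normalization (0.44, adjusted p = 0.081). At day 8, 6 of 23 were higher and 0 lower in DTR- mice, where 10.4% of all genes were higher and 3.17% lower, and 7 and 0 in DTR+ mice, where 16.7% and 8.51% were. Lum (1.86 and 1.88), Mfap5 (1.39 and 1.59), Fap, a membrane protease of fibroblasts (1.24, and in DTR+ mice at least 1.87-fold, both xINJ samples lying below the 40th percentile), and Thy1 (1.17 and 1.78) were among both.

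With the DTR allele, 2 of these 23 genes were lower among CTx samples of day 8 and 3 among xINJ samples of day 8, where 0.655% and 0.806% of all genes were lower. None was higher, but Thy1, at 0.68 in CTx muscle (adjusted p = 0.058), passed with the replicate block (adjusted p = 0.038), with quantile normalization (0.72, adjusted p = 0.031) and without DTR+ CTx day 8 replicate 1 (0.83, adjusted p = 0.028). Lum measured 8.52 ± 0.30 (SD, n = 3) in DTR+ and 9.73 ± 0.04 (SD, n = 3) in DTR- CTx samples, and 6.64 ± 0.38 (n = 2) and 7.87 ± 0.15 (n = 3) in xINJ samples, with no overlap. The Lum differences were -1.21 ± 0.21 (SE, adjusted p = 0.0014) and -1.23 ± 0.23 (SE, adjusted p = 0.0056). The first held in every alternative, and the second was -0.96 (adjusted p = 0.17) without DTR+ xINJ day 8 replicate 1. Col15a1, a basement membrane collagen, differed by -0.78 (adjusted p = 0.011) and -0.79 (adjusted p = 0.031). In CTx muscle the Col15a1 call was lost without DTR+ replicate 2 (-0.68) or DTR- replicate 1 (-0.69) or 3 (-0.66), at adjusted p of 0.069 to 0.083. The call was also lost there with only the compared groups in the fit (adjusted p = 0.053). In xINJ muscle it was lost without DTR+ replicate 1 (-0.87) or 2 (-0.71) or DTR- replicate 1 (-0.82) or 3 (-0.69), at adjusted p of 0.071 to 0.26. Smoc2, a matrix-associated calcium-binding protein, differed by -0.93 (adjusted p = 0.021) in xINJ muscle, which was lost without DTR+ replicate 1 (-0.82) or 2 (-1.04) or DTR- replicate 1 (-0.97) or 3 (-0.93), at adjusted p of 0.052 to 0.27.

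Members varied together to different degrees. Of the 36 pairs of members, 29 had a Pearson correlation of log2 intensity above 0 over the 21 samples, 5 were above 0.7, and the median was 0.50. The highest were Pdgfra with Dpt (0.92), Pdgfra with Il33 (0.78) and Dpt with Il33 (0.76). Gsn had the lowest, with Il33 (-0.46), Dpt (-0.37) and Pdgfra (-0.27). The points share arrays, groups and days, so these values describe the samples and carry no test.

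**Figure D5:**
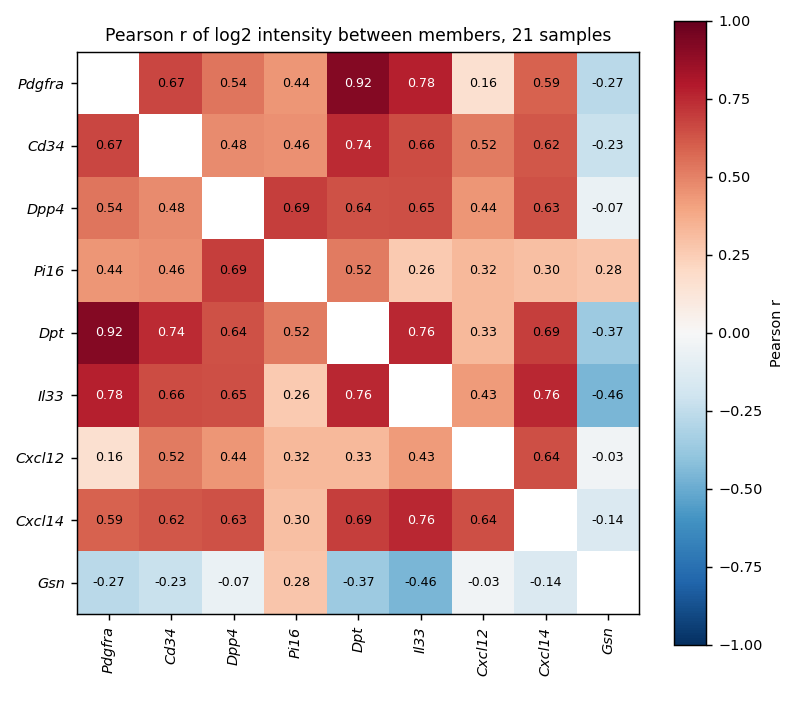
Pearson correlation of log2 intensity over the 21 samples between each pair of the 9 members (both axes), coloured from -1 (blue) to 1 (red). The row of Gsn holds the lowest value, -0.46 with Il33, and the pair Pdgfra and Dpt the highest, 0.92.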

How the data were processed

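Total RNA from 21 whole muscle samples was hybridised to 1-colour arrays. The deposited value is 1 RMA intensity per probe set on a linear scale; the submitters' processing notes name Affymetrix Power Tools, and its version is not given. Log2 was taken here from the deposited intensity. Of 24922 probe sets, 21425 carry a single symbol and stand for 19752 genes; where a gene had several (921 genes), the brightest was used. Array medians were 133.05 to 159.53, and precision is limited by how few arrays each group has. Groups follow the titles.

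A single linear model (limma 3.58.1, R 4.3.3) held a mean for each of 9 groups, with 12 residual and 6.56 prior degrees of freedom, and gave 12 contrasts. Tests were two-sided, Benjamini-Hochberg adjusted over 13278 genes, with a threshold of 0.05. Contrasts share groups, so their values stand side by side and are not separate evidence. Where every sample of the dimmer group was under the 40th percentile, the fold is a lower bound, the brighter mean against the mean of that percentile, which is not a detection limit. The fit was also run on simulated data with known changes and independent noise, and the outcome is not reported here. Those data held no replicate structure, so they cannot check the p-values where samples deviate together. The 10 members, the context lists and the tests were chosen with earlier results of these data known.

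Genes named beside the members are, per context list and comparison, up to 4 of smallest p, a fixed set of receptors and ligands, and the 5 genes most correlated with Il33, Pdgfra and Cd34. Deviations of samples with the same replicate number correlated at 0.545, 0.391 and 0.234 for the genotype in CTx muscle at day 8. For day 8 against day 4 in DTR- CTx muscle they correlated at 0.354, 0.339 and 0.24. The main fit paired no samples, in these comparisons or in others. The replicate number entered only as a block in an alternative fit. Alternatives were no filter, 2 other scalings, all probe sets of a gene, only the compared groups, the doubtful samples moved or left out, a replicate block, and each sample left out in turn.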

Additional observations from a re-analysis of the deposited data

Results flagged for a closer look

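No member's effect differed between days, muscles or genotypes past limma's threshold, but 4 results for genes of the pathways did. The genotype difference of Ccl24 was larger at day 8 than at day 4 in CTx muscle by 1.26 ± 0.20 on the log2 scale (SE, adjusted p = 0.0066) and larger in CTx than in xINJ muscle at day 8 by 1.15 ± 0.20 (SE, adjusted p = 0.019). Only in the 3 DTR+ CTx samples of day 8 did Ccl24 exceed the 40th percentile, so both differences are measured against values below that level. Ccl24 also met the filter for testing only through those samples, so both p-values describe a gene kept through the group where it is high. The first was lost with only the compared groups in the fit (adjusted p = 0.051), and the second without any of 4 samples (DTR+ xINJ day 8 replicate 1 at 1.21 or 2 at 1.09, DTR- CTx day 8 replicate 3 at 1.05, DTR- xINJ day 8 replicate 3 at 1.15).

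In DTR- mice the excess of CTx over xINJ muscle was smaller at day 8 than at day 4 for Il4ra (-1.27 ± 0.22, SE, adjusted p = 0.0016) and for Cxcr4 (-1.19 ± 0.27, SE, adjusted p = 0.0071). Both passed under every alternative that was run, with adjusted p of at most 0.0095 for Il4ra and 0.044 for Cxcr4.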

How the results depend on the processing

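The values of the members alone were counted against the main fit. Of 756 under the other settings, 704 kept their direction and their side of the threshold, 27 lost a call, 5 gained one and 20 changed sign. Of 756 with 1 sample left out, 653 kept both, 49 lost a call, 5 gained one and 49 changed sign. The cause was not tested. At day 4 the 4 member calls between CTx and xINJ samples of DTR- mice held under every setting. In DTR+ mice at day 8 the 5 calls became 3 with centred arrays and 3 with only the compared groups in the fit, and 2 to 5 with 1 sample left out; the 3 calls in DTR- mice at day 8 became 2 to 4 with 1 left out. The 5 calls between the days in DTR- CTx muscle became 1 with both doubtful samples left out and 1 to 4 with 1 sample left out. The 4 in DTR+ CTx muscle became 2 with no filter, 1 with quantile normalization, 1 with only the compared groups, 2 with the replicate block, and 0 to 4 with 1 sample left out. The 1 in xINJ muscle became 0 with no filter, with quantile normalization, with only the compared groups, with the sample of doubtful day moved or both doubtful samples left out, and 0 without any 1 sample. The 1 genotype call in CTx muscle at day 8 became 0 to 1 with 1 sample left out.

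The replicate block gave the difference of the CTx effect between the days 1 call in place of 0 (Il33, adjusted p = 0.032), and 0 to 1 with 1 sample left out. It also called Cd34 in DTR- mice at day 8 (adjusted p = 0.022). The labels do not say what a replicate number marks. Outside the genotype in CTx muscle at day 8 and the days in DTR- CTx muscle, deviations of same-numbered samples correlated at -0.448 to 0.468. Over all pairs of samples from different groups the median was 0.19 with the same number and -0.081 with different numbers.

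Values that changed sign passed on neither side. Centred arrays gave Cd34 -0.062 for CTx against xINJ in DTR- mice at day 4 and -0.0074 for the genotype effect of CTx minus xINJ, and Cxcl14 -0.041 for CTx against xINJ in DTR- mice at day 8 and -0.029 for the genotype in CTx muscle at day 8. Quantile normalization gave, for CTx against xINJ in DTR- mice at day 8, Pi16 -0.019 and Cxcl14 -0.040, for the days in DTR+ CTx muscle Pdgfra 0.0071, and for the genotype effect between the days Cxcl14 0.0091. Moving the sample of doubtful day gave Cd34 -0.087 at day 4, Pi16 -0.021 and Cxcl14 -0.15 at day 8, and Dpt -0.038 for the CTx effect between the days. Leaving out both doubtful samples gave genotype differences at day 4 of 0.067 for Pdgfra, 0.070 for Dpt and 0.021 for Il33. The replicate block gave, for the same contrast, Dpt 0.051, Cxcl14 -0.022 and Gsn 0.0045, and for the differences of genotype effects Cxcl14 0.038 (between days) and Cd34 -0.0074 (between muscles).

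With 1 sample left out, the genotype difference in CTx muscle at day 4 ran from -0.23 to 0.078 for Pdgfra, -0.11 to 0.072 for Dpt, -0.31 to 0.26 for Gsn, -0.41 to 0.080 for Il33 and -0.030 to 0.21 for Cxcl14. That at day 8 ran from -0.15 to 0.041 for Cd34 and -0.24 to 0.28 for Cxcl14, and that in xINJ muscle from -0.23 to 0.024 for Cd34, -0.42 to 0.0055 for Il33 and -0.21 to 0.082 for Gsn. The genotype effect between days ran from -0.31 to 0.21 for Cxcl14 and between muscles from -0.073 to 0.19 for Cd34. The CTx effect between the days ran from -0.22 to 0.050 for Pdgfra, -0.084 to 0.19 for Cxcl12, -0.41 to 0.0008 for Cxcl14 and -0.057 to 0.24 for Gsn. The change over the days ran from -0.28 to 0.029 for Pdgfra and -0.068 to 0.22 for Dpp4 in DTR+ CTx muscle, and from -0.16 to 0.055 for Cd34 in DTR- CTx muscle. CTx against xINJ in DTR- mice ran from -0.087 to 0.16 for Cd34 at day 4, and at day 8 from -0.19 to 0.13 for Dpp4, -0.11 to 0.30 for Cxcl14 and -0.098 to 0.22 for Pi16.

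Centring shifted the median of all genes by -0.10 in DTR- mice at day 4 and -0.15 in DTR+ mice at day 8 for CTx against xINJ, and quantile normalization by -0.10 in the latter. Over all genes, the 78 calls of the genotype effect between the days became 50 with centred arrays, 26 with only the compared groups, 30 without both doubtful samples and 153 with the block. The 31 between the muscles became 57 with the moved sample and 55 with the block, the 347 genotype calls in xINJ muscle 602 with the moved sample, and the 1471 calls between the days in DTR+ CTx muscle 841 with only the compared groups. The 9 calls between the days in xINJ muscle became 2 with quantile normalization, 0 with only the compared groups or the doubtful samples moved or left out, and 20 with the block, and the 1655 for the CTx effect between the days became 1053 without both doubtful samples.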
